A study of Mus musculus with 3 samples.

Results

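Cytochrome P450 genes were followed in embryoid bodies of mouse embryonic stem cells with an altered Dido gene. The set was chosen by name, as genes on the array whose symbol is Cyp followed by a family number, a subfamily letter and a member number, with 1 such gene left out. This gave 87 genes, read by 112 probes, of 30175 gene names on the array. Embryoid bodies are clusters of stem cells that differentiate without direction once they are lifted off the plate. They were kept for 10 days in suspension without the self-renewal factor LIF, and total RNA was then read on 3 arrays with 2 colours. Each array held 1 wild-type RNA and 1 RNA of the genotype labelled Dido3deltaCT+HADidoNT. In that genotype the Dido3 protein lacks part of its C-terminus, and the N-terminal region common to the Dido proteins, with its PHD domain, is overexpressed with an HA tag. Both genotypes were grown in parallel, and the labels call the 3 RNAs of each biological replicates. Neither the promoter of the tagged protein nor the number of stem cell clones is stated in the labels, and p-values measure the spread between these 3 arrays.

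P450 enzymes hold a haem iron and insert 1 oxygen atom into a substrate, with electrons passed on by P450 reductase at the endoplasmic reticulum or by ferredoxin in mitochondria. Some families have a fixed task in the body: they make steroid hormones, bile acids and active vitamin D, or they break down retinoic acid, the vitamin A signal that patterns the embryo. The families Cyp1 to Cyp3 mostly oxidise drugs and other foreign compounds and are richest in liver and gut, and the Cyp4 family hydroxylates fatty acids and the lipid signals made from them. In stem cell cultures, liver-type and gut-type P450 genes are used as signs of endoderm, the layer that gives rise to those organs.

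A gene was tested when a probe of it was well above background, by the scanner software's own call, on all 3 arrays in at least 1 genotype. That held for 47 of the 87 P450 genes (54.0%), against 65.2% of all genes on the array. For 30 genes a probe was above background in both genotypes on all arrays. Another 17 passed through 1 genotype only, 15 of them through the mutant and 2 (Cyp4f39 and Cyp4v3) through the wild type. Since a gene that passes only through the mutant channel tends to read higher there, counts over the tested genes are given as descriptions: 12 of the 15 had a mean ratio above 0. The remaining genes had no tested value. Of these, 20 were above background on some array but not on enough: Cyp11a1, Cyp19a1, Cyp1a2, Cyp24a1, Cyp26c1, Cyp2a4, Cyp2b10, Cyp2b13, Cyp2b19, Cyp2b23, Cyp2c39, Cyp2d13, Cyp2d9, Cyp2f2, Cyp2g1, Cyp2j11, Cyp2w1, Cyp3a11, Cyp3a59 and Cyp4a14. The other 20 were above background on no array in either genotype: Cyp11b1, Cyp11b2, Cyp2a22, Cyp2ab1, Cyp2b9, Cyp2c50, Cyp2c54, Cyp2d10, Cyp2d34, Cyp2j5, Cyp3a16, Cyp3a25, Cyp3a44, Cyp3a57, Cyp4a32, Cyp4f14, Cyp4f40, Cyp4x1, Cyp7a1 and Cyp8b1. Detection was uneven between roles: all 4 tested genes of cholesterol and bile acid metabolism were above background in both genotypes, while 11 of the 17 tested Cyp2a to Cyp2g genes passed through the mutant alone.

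**Figure D1:**
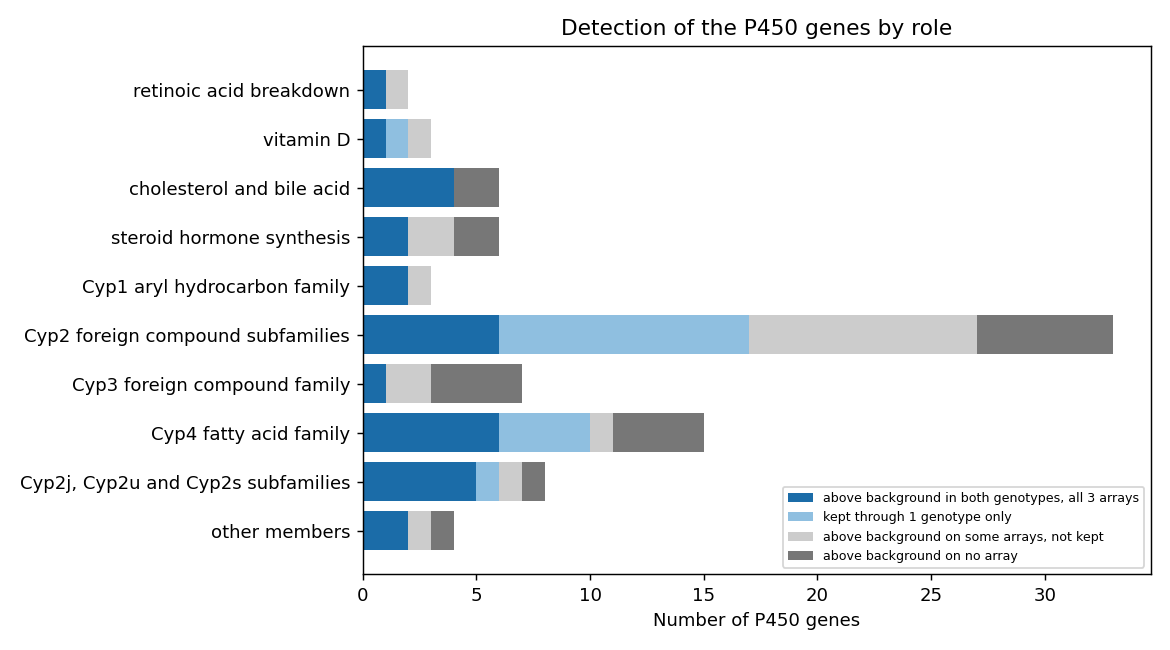
Number of P450 genes (horizontal axis) in each role (vertical axis), split by how they were detected: above background in both genotypes on all 3 arrays, kept through 1 genotype only, above background on some arrays but not kept, or on none. The Cyp2 foreign compound subfamilies are the longest bar, with 33 genes, 6 of them in the darkest blue, and the Cyp3 bar has 1 tested gene of 7.

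The arrays differed among themselves in ways that bear on every value below. The mutant RNA carried the dye Cy3 on arrays 1 and 3 and Cy5 on array 2, so that array and dye orientation cannot be told apart for array 2. Over all genes the log2 ratios correlated at 0.794 between arrays 1 and 3, at 0.377 between arrays 1 and 2 and at 0.194 between arrays 2 and 3. Between 64.8% and 76.0% of the spots were well above background in each channel, and no spot was saturated. Of 4 probes for Dido1, the altered gene, 3 kept one sign on all arrays, with mean ratios of -3.60 ± 0.17, 2.35 ± 0.40 and 3.03 ± 0.34, and the fourth changed sign between arrays. Markers of other tissues moved as well. Of 6 tested gut epithelium markers 4 were called higher (Cdx2, Fabp1, Fabp2 and Krt20) and Lgals4 was lower on all arrays (-0.07, -0.91 and -0.17), while Alpi was above background nowhere. The list's summed intensity was 14300 to 23100 in mutant RNA against 2640 to 5180 in wild type. Of 9 tested markers of visceral endoderm and liver 2 were called higher (Apoa4 and Ttr) and 8 were higher on all arrays. Their summed intensity was 378000 to 715000 against 60200 to 186000, with albumin above background on 1 mutant array. Of 8 neural markers 7 were lower on all arrays, and none was called. Endothelial markers had 2 of 6 called higher, smooth muscle and mesenchyme 1 of 6, trophoblast 2 of 6, and pluripotent cells none of 6. The median of the pluripotent cell markers was -2.21, -2.12 and 0.94 on arrays 1 to 3, so array 3 went the other way from arrays 1 and 2. Of these 6 markers 1 was higher on all arrays. The part of these cell types in the P450 values was not tested, and in bulk RNA fewer cells of a type and less RNA per cell cannot be told apart.

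Across the 47 tested P450 genes, 2 rose in the mutant and none fell. The test was limma's moderated test of the log2 ratio of mutant over wild type against 0, two-sided, adjusted by Benjamini-Hochberg over 19687 genes, with a call below 0.05. Cyp3a13 and Cyp27b1 were called higher, where 1.27% of all tested genes were. Cyp27b1 had passed the background filter through the mutant channel alone, so 1 call, Cyp3a13, stood among genes detected in both genotypes. No P450 gene was called lower, where 0.391% of all genes were, although Cyp27a1 and Cyp4v3 had unadjusted p below 0.05. At that looser threshold 6 of the 47 P450 genes were higher and 2 lower, against 12.1% and 7.77% of all genes. At least 2-fold higher on every array were 3 P450 genes, against 3.11% of all genes, and none was 2-fold lower on every array, against 1.08%. Higher on every array were 13, against 22.5% of all genes, and lower on every array were 8, against 19.1%. The last pair of counts, and the 6 higher at unadjusted p below 0.05, are close to the shares of the whole array. The calls and 2-fold counts rest on 2 and 3 genes. The median P450 ratio was 0.055 (interquartile range -0.21 to 0.33), against -0.01 for all genes (-0.28 to 0.33). By array the median was -0.08, 0.22 and -0.03. Among the 30 genes detected in both genotypes the median was 0.023, with 4 higher and 5 lower on all arrays and 1 call. Every mutant level lay above every wild-type level in 10 genes, against 13.0% of all genes, and below it in 3, against 8.58%. Of the 10, only Cyp3a13 and Cyp2d26 were detected in both genotypes, and the rest passed through the mutant alone. Of the 3, Cyp4v3 passed through the wild type alone. Both counts are therefore partly fixed by the filter. Without array 2 there were 5 calls higher and 4 lower, where 15.5% and 10.3% of all genes were called, and without array 1 or array 3 no gene on the whole array was called. In 16 of the 47 genes (34%) arrays 1 and 3 pointed one way and array 2 the other, against 38.4% of all genes.

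**Figure D2:**
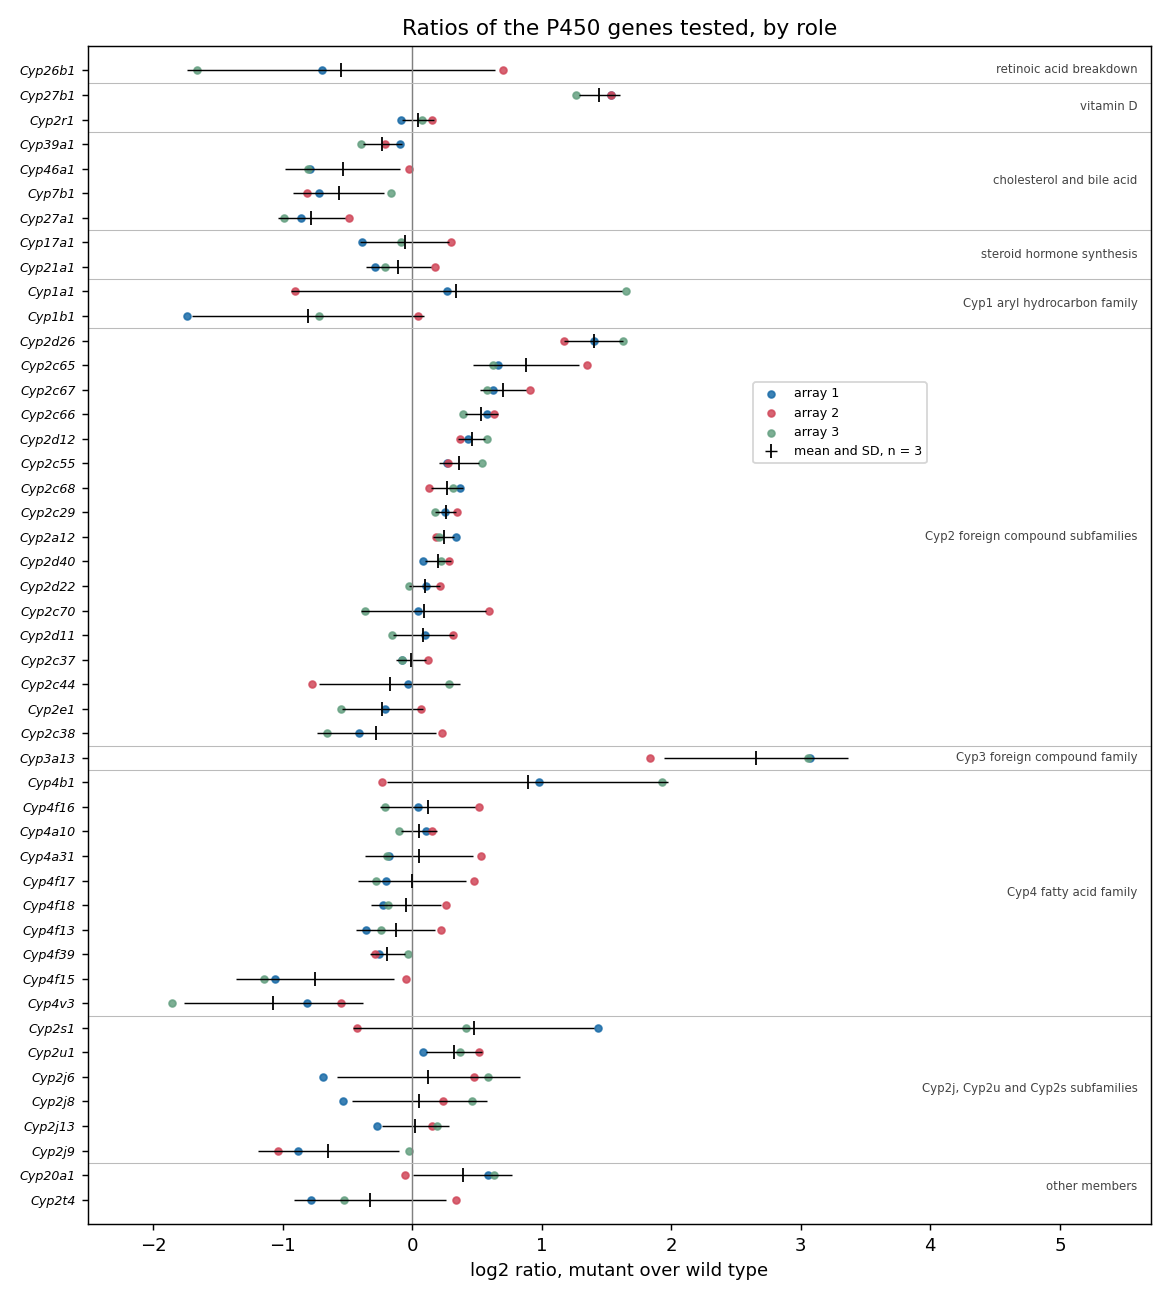
Log2 ratio of mutant over wild type (horizontal axis) for each of the 47 tested P450 genes (vertical axis), grouped by role; coloured points are the 3 arrays and black bars the mean and SD. Cyp3a13, Cyp27b1 and Cyp2d26 have all 3 arrays above 1, most other means lie within 1 of 0, and the 4 genes of cholesterol and bile acid metabolism have all their points below 0.

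The foreign compound enzymes held the largest ratio of the family. Cyp3a13 belongs to the Cyp3a subfamily, whose members oxidise many drugs and steroids, and it is known in the mouse from the small intestine. It was read by a pair of probes that passed the filter. Both sequences are shown because the probes differed in size of response. Each is given as the first 30 of 60 bases, 5′ to 3′ on the minus strand (mm9), with no part in capitals.
Cyp3a13 brighter probe, chr5:138335442-138335471: cctgtggaccagaaaccaattcatattgtg
Cyp3a13 second probe, chr5:138334295-138334324: ctagttccacccatttacctgcaaaattca
At the brighter probe the log2 intensity in the mutant was 10.42, 9.50 and 9.78 on arrays 1 to 3, and 7.34, 7.67 and 6.72 in the wild type. Every mutant value was above every wild-type value, in both dye orientations, as for 13.0% of all tested genes. The log2 ratios were 3.08, 1.83 and 3.05, a mean of 2.65 ± 0.71 (SD, n = 3), or 6.29-fold higher in the mutant, with a 95% interval of 1.82 to 3.49 and adjusted p = 0.0452 by limma. The second probe read 0.92, 0.75 and 0.92, a mean of 0.86 ± 0.10, in the same direction but smaller than the brighter probe on every array. With the mean of both probes the ratio was 1.76 and the adjusted p 0.0514, so the call was lost when the second probe counted equally. It was lost under 7 of 16 other ways of processing in all, with adjusted p from 0.0074 to 0.292, while the ratio stayed between 1.76 and 3.45. Without array 1 the adjusted p was 0.220, without array 3 it was 0.157, and without array 2, where both remaining arrays carry the mutant in Cy3, it was 0.0074 at a ratio of 3.06. The other 6 Cyp3a genes on the array lie together on chromosome 5 (chr5:146151322-146924544, mm9), apart from Cyp3a13, and none was tested: 4 were above background nowhere, and Cyp3a11 and Cyp3a59 on too few arrays. Beside Cyp3a13, 4 of 6 tested gut epithelium markers and 2 of 9 of visceral endoderm and liver were called higher, as given above. Of the gut list, Lgals4 was lower on all arrays and Alpi was above background nowhere. A link between these markers and Cyp3a13 was not tested.

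Of the 33 genes in the subfamilies Cyp2a to Cyp2g, 17 were tested and none was called. On all 3 arrays 10 were higher and none lower, against 22.5% and 19.1% of all tested genes. For 11 of the 17 the wild-type channel did not pass the background filter on every array, so this direction is partly fixed by the choice of genes. Among the 6 detected in both genotypes, 2 were higher on all arrays, where 22.5% of all tested genes were, and the median was 0.093. Cyp2d26, one of the drug-metabolising Cyp2d enzymes, had the largest ratio of the group and missed the threshold narrowly. Its probe is shown in the same way, on the minus strand of chromosome 15.
Cyp2d26, chr15:82620605-82620634: ctatcagctctgtgcagtggctcgatagca
The mutant read 8.67, 8.78 and 8.86 on the log2 intensity scale and the wild type 7.26, 7.61 and 7.23. The groups did not overlap, as for 13.0% of all tested genes, and both genotypes were above background on all arrays. The ratios of 1.41, 1.17 and 1.63 averaged 1.40 ± 0.23 (SD, n = 3), 2.64-fold, with a 95% interval of 0.89 to 1.92 and adjusted p = 0.0528 by limma. It was called under 6 of 16 other ways of processing, with adjusted p between 0.0146 and 0.338, and its ratio stayed between 0.95 and 1.99. Without array 2 the adjusted p by limma was 0.0146, in a fit that called 15.5% of all genes higher. Without array 1 or 3 the adjusted p was 0.338 or 0.228.

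The Cyp2d genes lie side by side on chromosome 15 (chr15:82204377-82620634, mm9), where 9 of them had probes and 5 were tested. All 5 had mean ratios above 0, from 0.087 for Cyp2d11 to 1.40 for Cyp2d26, and 3 were higher on every array. Of these, Cyp2d40 passed the filter through the mutant alone. Among the 4 Cyp2d genes detected in both genotypes 2 were higher on every array, where 22.5% of all tested genes were. Cyp2d12 read 0.43, 0.37 and 0.58 (mean 0.46 ± 0.10) and Cyp2d40 read 0.09, 0.28 and 0.23 (mean 0.20 ± 0.10). Cyp2d11 had the highest mean intensity of the Cyp2a to Cyp2g genes and was near 0, with ratios of 0.10, 0.32 and -0.16 (mean 0.09 ± 0.24) and adjusted p = 0.856. Cyp2d22 read 0.11, 0.21 and -0.03. The high ratio of Cyp2d26 was therefore not shared in size by its neighbours.

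The Cyp2c genes, which include liver drug enzymes and epoxygenases of arachidonic acid, form a cluster on chromosome 19 (chr19:39116674-40228028, mm9) with 12 genes, 9 of them tested. Of the 9, 6 were higher on all arrays and none lower, against 22.5% and 19.1% of all tested genes, and the median was 0.27. For 8 of these 9 the wild-type channel was below the filter on at least 1 array, and the exception, Cyp2c38, had a mean of -0.28 ± 0.46. Cyp2c65 and Cyp2c66, known from the gut, and Cyp2c67 had unadjusted p below 0.05 without being called. Cyp2c65 (chr19:39167981-39168040) read 7.09, 8.04 and 7.24 in the mutant and 6.43, 6.69 and 6.61 in the wild type, a ratio of 0.88 ± 0.41 with adjusted p = 0.142. Its wild-type channel was above background on 1 array, and its highest ratio, 1.35, came from array 2. Without that array the ratio was 0.64 with adjusted p = 0.0498, in a fit that called 15.5% of all genes higher. Cyp2c67 (chr19:39683541-39683600) read 6.95, 7.19 and 6.84 in the mutant and 6.33, 6.28 and 6.26 in the wild type, where its probe was not well above background on any array. At this probe the mean ratio was 0.70 ± 0.18, or 1.63-fold higher in the mutant. The 95% interval was 0.20 to 1.20, with adjusted p = 0.144 by limma. A second Cyp2c67 probe, which did not pass the filter, read 0.22, 0.39 and 0.10 (mean 0.24 ± 0.15), in the same direction but smaller on every array. Cyp2c66 (chr19:39261183-39261242) read 7.06, 7.28 and 7.26 in the mutant and 6.48, 6.65 and 6.87 in the wild type, a ratio of 0.54 ± 0.13 with adjusted p = 0.213. In all 3 genes the mutant values lay above the wild-type values, as for 13.0% of all genes, with at most 1 wild-type array above background, so the separation is partly fixed by how they passed the filter. The other cluster members higher on every array were Cyp2c55 (0.36 ± 0.15), Cyp2c68 (0.27 ± 0.13) and Cyp2c29 (0.26 ± 0.08). Cyp2c37 and Cyp2c70 were within 0.1 of 0 in the mean. Cyp2c44, which lies apart on the same chromosome, read -0.03, -0.77 and 0.29. Of the rest of the group, Cyp2a12 read 0.34, 0.18 and 0.21 with no wild-type array above background. Its mean ratio was 0.24, with a 95% interval of -0.23 to 0.72, so no change lay within the interval. Cyp2e1, which oxidises ethanol, read -0.21, 0.07 and -0.55.

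**Figure D3:**
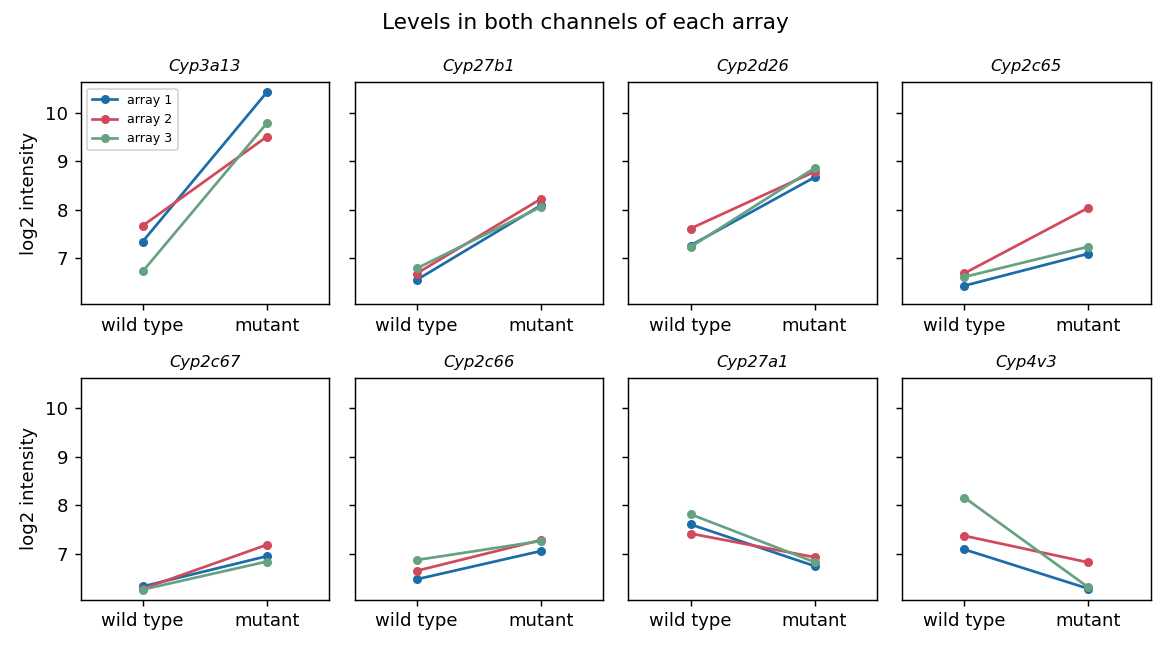
Log2 intensity (vertical axis) of the wild-type and mutant channel of each array, joined by a line per array, for the 8 P450 genes with unadjusted p below 0.05. The mean slope is steepest for Cyp3a13, the lines of Cyp27b1 and Cyp2d26 slope up by similar amounts on each array, and those of Cyp27a1 and Cyp4v3 slope down.

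The Cyp1 enzymes, targets of the aryl hydrocarbon receptor, gave no consistent direction. Cyp1b1, the member known from mesenchyme, read 6.93, 8.26 and 8.50 in the mutant and 8.67, 8.21 and 9.21 in the wild type. The ratio of -0.80 ± 0.89 (adjusted p = 0.336) came from arrays 1 and 3, at -1.73 and -0.72, with array 2 at 0.05. Cyp1a1 read 0.27, -0.90 and 1.66, a mean of 0.34 ± 1.28, so its spread exceeded its mean. Cyp1a2 was above background on 1 array per genotype and was not tested.

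Vitamin D is activated by P450 enzymes in sequence: Cyp2r1 makes the circulating form, Cyp27b1 turns it into the hormone, and Cyp24a1 inactivates it. Cyp27b1 was the second gene called higher. Its probe is shown as the first 30 of 60 bases on the plus strand of chromosome 10.
Cyp27b1, chr10:126489922-126489951: ttgcctaatttacagcgtttttaagcctcc
The mutant read 8.09, 8.22 and 8.05 on the log2 intensity scale and the wild type 6.55, 6.68 and 6.79. The 2 ranges did not overlap, as for 13.0% of all tested genes. Cyp27b1 passed the filter through the mutant alone, with the wild-type channel above background on 2 of 3 arrays. Its separation is therefore partly fixed by the filter. The log2 ratios were 1.54, 1.54 and 1.27, a mean of 1.45 ± 0.16 (SD, n = 3), 2.72-fold higher, with a 95% interval of 0.95 to 1.94 and adjusted p = 0.0483 by limma. The call lies close to the threshold. It was lost under 8 of 15 other ways of processing, with adjusted p from 0.0165 to 0.323, while the ratio stayed between 0.99 and 3.18. Without array 1 the adjusted p was 0.323, without array 3 it was 0.183 and without array 2 it was 0.0165, all at ratios of 1.40 to 1.54. The fit without array 2 had the mutant in Cy3 on both arrays and called 15.5% of all genes higher. Cyp2r1 read -0.09, 0.15 and 0.08, a mean of 0.05 ± 0.12 with a 95% interval of -0.44 to 0.53. Cyp24a1 was above background on 2 arrays in each genotype and was not tested.

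**Figure D4:**
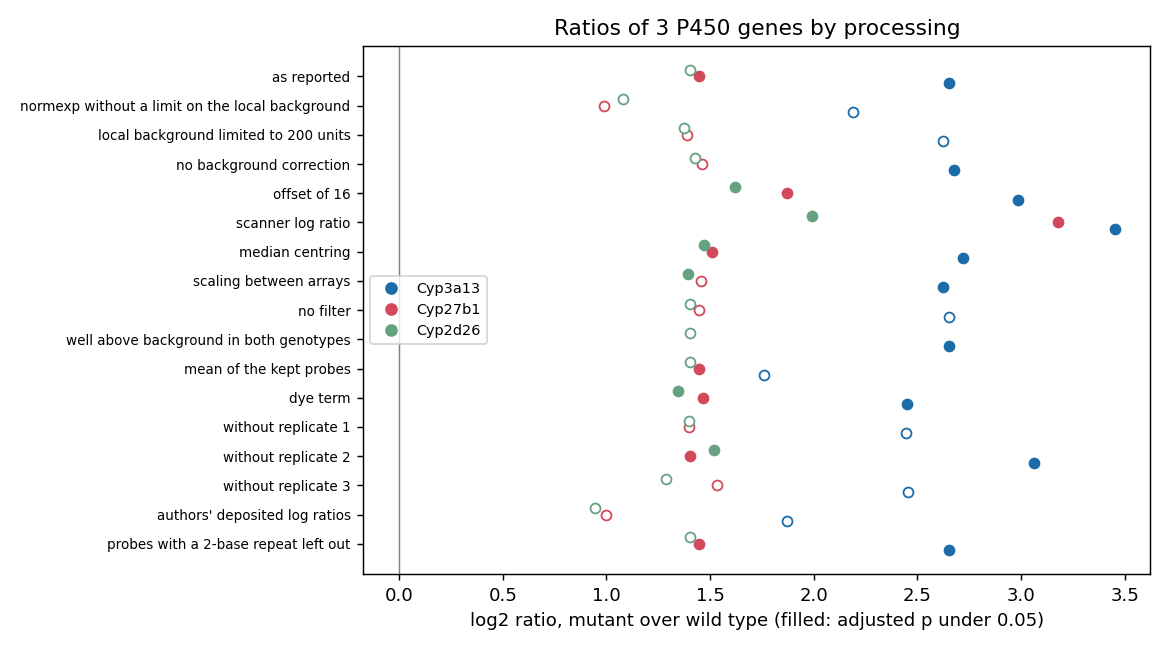
Log2 ratio of mutant over wild type (horizontal axis) of Cyp3a13, Cyp27b1 and Cyp2d26 as reported and under each alternative way of processing (vertical axis); filled points have an adjusted p below 0.05. All points lie above 0, from 0.95 to 3.45, and the calls come and go between settings.

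The genes that turn cholesterol into bile acids and oxysterols pointed the other way. Of 6 genes, Cyp7a1, the rate-limiting enzyme of bile acid synthesis in liver, and Cyp8b1, which shapes cholic acid, were above background on no array. The 4 others were above background in both genotypes on all arrays, and all 4 were lower in the mutant on all 3 arrays, against 19.1% of all genes. None was called. Cyp27a1, the mitochondrial enzyme that oxidises the cholesterol side chain, read 6.75, 6.93 and 6.83 in the mutant and 7.61, 7.42 and 7.82 in the wild type (chr1:74782203-74782262). The groups did not overlap, and every mutant level lay below every wild-type level in 8.58% of all tested genes. The Cyp27a1 ratios of -0.86, -0.49 and -0.99 averaged -0.78 ± 0.26 with adjusted p = 0.136 by limma. It passed the threshold in limma without array 2 (adjusted p = 0.0273) and with a dye term (0.0485). Those fits called 10.3% and 4.91% of all genes lower, against 0.391% in the reported fit. Without array 2 the mutant was in Cy3 on both arrays, so dye and genotype cannot be told apart there. Cyp7b1, which hydroxylates oxysterols, read -0.72, -0.81 and -0.17 (mean -0.57 ± 0.35, adjusted p = 0.259). Cyp46a1, the cholesterol hydroxylase of neurons, read -0.78, -0.02 and -0.80 (mean -0.54 ± 0.44), so its array 2 value was near 0, and it passed the threshold without that array (-0.79, adjusted p = 0.0341). Cyp39a1, which acts on the product of Cyp46a1, read -0.09, -0.21 and -0.39 (mean -0.23 ± 0.15, adjusted p = 0.564). The median of these 4 genes was -0.55, and over 16 other ways of processing it lay between -0.94 and -0.43. In 4 of those settings 3 genes rather than 4 were below 0 on all arrays.

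Steroid hormone synthesis was little represented. Of 6 genes, the adrenal Cyp11b1 and Cyp11b2 were above background nowhere. Cyp11a1, which starts steroid synthesis by cutting the cholesterol side chain, and Cyp19a1, the aromatase that makes oestrogens, were above background on too few arrays. Cyp17a1, needed to make androgens, read 7.65, 7.69 and 7.31 in the mutant and 8.03, 7.40 and 7.39 in the wild type, a ratio of -0.06 ± 0.34 with a 95% interval of -0.63 to 0.52. Cyp21a1, the adrenal hydroxylase, read -0.28, 0.18 and -0.21 (mean -0.11 ± 0.25). Both genes had overlapping groups. The markers of steroidogenic cells gave no call among 4 tested, with Lhcgr and Mc2r above background on no array. Of the 4, Hsd3b1 was higher on all arrays (1.46, 0.71 and 1.61) and Star was lower on all arrays (-0.14, -0.23 and -0.11). Their summed intensity was 1160 to 1980 in mutant RNA against 1340 to 1430 in wild type.

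Retinoic acid breakdown was read by 1 tested gene. Cyp26b1, which clears retinoic acid in embryonic tissue, read 8.40, 8.28 and 7.66 in the mutant and 9.09, 7.58 and 9.32 in the wild type. The ratios were -0.69, 0.71 and -1.66, a mean of -0.55 ± 1.19 (adjusted p = 0.592), so the arrays did not share a direction. Cyp26c1 was above background on 1 wild-type array.

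The fatty acid hydroxylases of the Cyp4 family, 15 genes with 10 tested, gave no call and had a median of -0.02. Cyp4v3, the mouse counterpart of a gene mutated in a human retinal dystrophy, had the lowest mean of all tested P450 genes. It read 6.28, 6.82 and 6.31 in the mutant, above background on 2 of 3 arrays, and 7.09, 7.37 and 8.16 in the wild type (chr8:46391395-46391454). Its ratio was -1.07 ± 0.69 with adjusted p = 0.165, and the size came mostly from array 3, at -1.85. It passed the threshold without array 2, at -1.33 with adjusted p = 0.0464. The Cyp4f genes, which hydroxylate leukotrienes and other lipid signals, lie together on chromosome 17 (chr17:32629616-33062650), with 7 genes and 5 tested. Cyp4f13 had the highest mean intensity of the tested Cyp4 genes. It read 11.36, 11.64 and 10.88 in the mutant and 11.72, 11.42 and 11.12 in the wild type, a ratio of -0.13 ± 0.31. Cyp4f16 and Cyp4f17 had means of 0.12 ± 0.37 and 0.00065 ± 0.42. Cyp4f18, which lies on chromosome 8, had a mean of -0.05 ± 0.27, and its second probe also averaged near 0, at -0.01 ± 0.21. Cyp4f15 read -1.06, -0.05 and -1.15 (mean -0.75 ± 0.61, adjusted p = 0.255 by limma) and Cyp4f39 read -0.25, -0.29 and -0.03. These 2 were lower on every array, as were 19.1% of all tested genes. Without array 2 Cyp4f15 read -1.10 with adjusted p = 0.0206. Cyp4b1 went the other way on arrays 1 and 3, at 0.98 and 1.93, with array 2 at -0.23. It passed the filter through the mutant alone, with the wild type above background on 1 array. Without array 2 it read 1.45 with adjusted p = 0.0354. That fit, with the mutant in Cy3 on both arrays, called 15.5% of all genes higher and 10.3% lower. Cyp4a10 and Cyp4a31 had means of 0.05 ± 0.14 and 0.05 ± 0.42. Their probes share a run of 34 of 60 bases, so signal from one gene could be read by the probe of the other.

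Among the Cyp2j, Cyp2u and Cyp2s genes, which act on arachidonic acid and other endogenous lipids, 6 of 8 were tested and none was called. The probe that stood for Cyp2u1, an enzyme of long-chain fatty acids, is not specific. Of its 60 bases 32 are a run of GT, and it is shown beside another Cyp2u1 probe to make the difference visible. Both are the first 30 of 60 bases on the minus strand of chromosome 3 (mm9), and capitals mark the repeat.
Cyp2u1 brightest probe, chr3:130996373-130996402: actttatcattgGTGTGTGTGTGTGTGTGT
Cyp2u1 other probe, chr3:131000969-131000998: tacctcccctttggtccatttaaggagcta
The repeat probe shares at least 25 bases in a row with probes of 36 other genes. It read 0.08, 0.51 and 0.37, a mean of 0.32 ± 0.22, at log2 intensities of 14.99 to 15.42 in the mutant and 14.47 to 15.33 in the wild type. The other 2 tested probes read lower in the mutant on all arrays, with means of -0.31 ± 0.20 and -0.36 ± 0.23. Both passed the filter through the wild type alone, with the mutant above background on 2 arrays and 1 array, so their direction is partly fixed by the filter. The direction read for Cyp2u1 thus depended on the probe, and with such repeats left out it was -0.31 with adjusted p = 0.454. Cyp2s1, an epithelial enzyme, read 13.35, 12.30 and 11.14 in the mutant and 11.91, 12.72 and 10.72 in the wild type. Its ratio of 0.48 ± 0.93 (adjusted p = 0.570) changed sign on array 2, and its level differed more between arrays than between genotypes. In the Cyp2j genes of chromosome 4 (chr4:95709356-96294231), Cyp2j9 read -0.88, -1.04 and -0.03 (mean -0.65 ± 0.54, adjusted p = 0.285). Cyp2j6, Cyp2j8 and Cyp2j13 had means of 0.13 ± 0.71, 0.06 ± 0.52 and 0.02 ± 0.26, in each case with array 1 below 0 and arrays 2 and 3 above it.

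Of the 4 members outside these roles, Cyp20a1, an enzyme with no settled substrate, read 11.11, 11.70 and 11.86 in the mutant and 10.53, 11.75 and 11.23 in the wild type. Its ratio was 0.39 ± 0.38 with adjusted p = 0.426, with arrays 1 and 3 at 0.59 and 0.63 and array 2 at -0.05. Cyp2t4 read -0.78, 0.34 and -0.53. Both reversed on array 2, where the mutant carried the other dye.

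Genes that work with the P450 enzymes gave no call in any of 6 lists. Of 3 P450 enzymes named without this pattern, Tbxas1, thromboxane synthase, had a ratio of 1.25 ± 0.50 (adjusted p = 0.0888), while Ptgis, prostacyclin synthase, and Cyp51, which acts in cholesterol synthesis, were near 0 at -0.07 ± 0.17 and 0.08 ± 0.88. All 10 electron donors and haem genes were tested. At unadjusted p below 0.05 there were 2 higher and 1 lower: cytochrome b5, the electron carrier Cyb5, at 1.32 ± 0.08 (adjusted p = 0.0513), haem oxygenase Hmox1 at 0.59 ± 0.05, and the b5 reductase Cyb5r3 at -0.67 ± 0.27. Of 20 regulators of P450 genes 18 were tested, with 6 higher and 2 lower at that threshold. Hnf4a, the liver and endoderm factor, had a ratio of 2.08 ± 1.05 (adjusted p = 0.0902), the glucocorticoid receptor Nr3c1 0.94 ± 0.23 and the retinoid X receptor Rxra -0.98 ± 0.46. The conjugation enzymes, which act on P450 products, had 17 tested with 2 higher and 1 lower, among them Gstm1 at 0.94 ± 0.50 and Ugt2b34 at -1.11 ± 1.02. Steroid synthesis enzymes outside the family had 9 tested with 5 higher and none lower at unadjusted p below 0.05. Hsd17b1 read 1.32 ± 0.43 (adjusted p = 0.0723), Hsd3b1 1.26 ± 0.48 (0.0863) and Hsd17b2 1.04 ± 0.50 (0.125). Cholesterol synthesis had 12 tested with 3 higher and none lower, among them Sc5d at 1.08 ± 0.52 (adjusted p = 0.122). Against the 12.1% and 7.77% of all genes at that threshold, these counts are descriptions of short lists.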

How the data were processed

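RNA of day 10 embryoid bodies was hybridised to 3 Agilent mouse 4x44K v2 arrays. Per the file headers, the authors' scans were quantified with Feature Extraction 10.7.3.1, and the deposited scanner files hold intensity per spot and a log10 ratio of Cy5 over Cy3, with mm9 probe positions. The authors' deposited table holds log2 ratios, and limma is named in the submitters' processing notes with no version. Over 12534 bright spots these ratios had slopes of 0.864 to 0.928 on the scanner's, turned as mutant over wild type, with array medians of -0.02 to 0.02. How that table was background-corrected and scaled is not stated.

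Mean signal minus local background, limited to 100 units because 25 spots of array 2 exceeded it (up to 75739), was corrected by normexp (offset 50) and loess in limma 3.58.1 (R 4.3.3), with control spots at weight 0. Outlier spots were left out, spots averaged per probe, and the brightest kept probe taken per gene. Levels are the same values after Aquantile scaling between arrays. limma's lmFit and eBayes then compared each ratio with 0, a step tested on simulated data. Genes named with full values were called, 2-fold on all arrays, at unadjusted p below 0.05, or brightest of their role, plus up to 3 of smallest p per pathway list; the rest account for the members. Of 112 P450 probes, 107 carry the same symbol in RefSeq, 1 another (Cyp2c44, now Cyp2c23) and 4 had no match. Names are the array's. One further gene of this name pattern and some pathway genes are not reported here. The members, lists and alternatives were chosen with earlier results of these data known. With 3 arrays, precision is limited.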

Additional observations from a re-analysis of the deposited data

How the results depend on the processing

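The count of P450 genes called higher, 2 as reported, became 0 with no limit on the local background, 0 with a limit of 200 units, 1 with no background correction, 4 with the scanner's own log ratio, 0 with no filter on dim probes, 1 with both genotypes above background, 1 with the mean of the kept probes, 5 with a dye term and 0 with the authors' deposited log ratios. With no background limit, no filter or the authors' ratios no gene on the whole array was called, and the dye term called 7.80% of all genes higher and 4.91% lower. Leaving out 1 array gave 0 to 5, the 5 coming without array 2, where dye and genotype cannot be told apart. The count called lower, 0 as reported, became 1 with a dye term (Cyp27a1) and lay between 0 and 4 with 1 array left out. The 4 came without array 2: Cyp27a1, Cyp46a1, Cyp4f15 and Cyp4v3. Over all genes that fit called 3044 higher and 2033 lower. The count of 2-fold genes, 3 as reported, became 0 without the background limit, 9 with the scanner's log ratio and 1 with the authors' ratios. An offset of 16, median centring and an adjusted p under 0.1 gave 3 called higher. Scaling between arrays gave 2, Cyp3a13 and Cyp2d26. Median ratios stayed within 1 SD between arrays (0.161) of the reported one. Over 17 named genes and 267 values, 231 kept direction and side of the threshold, 15 lost a call, 13 gained one and 8 changed sign. Cyp17a1 turned to 0.0075 with median centring and 0.032 with a dye term. With 1 array left out, Cyp17a1 ran from -0.23 to 0.11, Cyp26b1 from -1.18 to 0.0061, Cyp2d11 from -0.028 to 0.21 and Cyp2r1 from -0.0056 to 0.11. Cyp2u1 turned to -0.11 with the mean of its probes and to -0.31 with probes holding a 2-base repeat left out, an alternative added after seeing the data. Apart from the settings that drop probes or arrays, the cause was not tested. The reported fit of ratios within arrays already pairs the genotypes, so no further replicate block was fitted. At these intensities many wild-type values are near background, which limits the fold that can be read.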
